A study of Mus musculus with 6 samples.

Results

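The L1 segment of the spinal cord was compared between mice of a subcutaneous tumour model and mice of a saline model. Of the 6 arrays in the series, the comparison took the 2 labelled SC and the 2 labelled PBS, chosen by their labels alone. All mice were male SCID mice, which carry a severe combined immunodeficiency. They were 9 weeks old as supplied and 15 weeks old at sampling, 6 weeks into the models. The third group (N-inv) had Capan-1 cells, an established human pancreatic cancer line, placed in the left sciatic nerve, and it entered only the estimate of the spread between arrays. The SC group was the subcutaneous control of that model, in which the tumour lies away from the nerve. The study's text names the cells for the nerve model only, and it does not state where the saline of the PBS group was given. SCID mice lack working T and B cells and keep their neutrophils, monocytes, microglia and complement. Whether each array was made from its own animal is not stated, so the p-values describe only how far these samples scatter, and that scatter may be technical. The comparison asks how the cord differs when a tumour lies away from the nerve.

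The cord holds neurons and several kinds of glia. Oligodendrocytes wrap axons in myelin, a membrane rich in cholesterol that is made largely inside the cord itself. Astrocytes supply neurons and can take on a reactive state, and microglia are the resident immune cells. A tumour elsewhere in the body can act on them through the blood or the nervous system, for instance by circulating cytokines or adrenal glucocorticoids.

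RNA was measured on Affymetrix 3' arrays as linear probe set intensities, which were scaled to a common array median of 255.8. All intensities below are on that scale. Gene names go to the brightest probe set of each gene, and 12626 named genes passed a filter on dim probe sets. The markers of the tissue were present, with Mbp between 69486 and 83563 on the 4 arrays, Gfap between 4632 and 15348, and the lumbar gene Hoxc10 between 4500 and 6414. The SC arrays stood apart from the rest and from each other. The correlation of log2 intensities between the SC arrays was 0.963 over 27022 probe sets, the lowest of the 15 pairs of arrays, against 0.982 between the PBS arrays. The ratio of the 3' to the 5' probe set of Actb, a measure of RNA integrity that is higher in degraded RNA, was 3.05 and 3.57 on the PBS arrays and 3.81 and 4.70 on the SC arrays. For Gapdh it was 2.82 and 3.02 against 3.52 and 3.38. Xist, the RNA that silences the second X chromosome in female cells, read 151 and 138 on the PBS arrays, 228 on SC replicate 1 and 13042 on SC replicate 2. The Y-linked Eif2s3y read 2575 and 2365 in PBS and 1342 and 3147 in SC in the same order. The Xist value of the array labelled SC replicate 2 thus goes against its label of male, and values below are given per SC array, so that they can be read with and without it.

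No probe set passed the test between SC and PBS. Of 27022 probe sets, 0 were called by limma with Benjamini-Hochberg adjustment at 0.05 (0%), and the smallest adjusted p was 0.514. At an unadjusted limma p under 0.05 there were 2129 probe sets (7.88%), 736 higher in SC (2.72%) and 1393 lower (5.16%). The design holds 2 arrays against 2, where an exact two-sided permutation test cannot go below p = 0.333. Values below are therefore described by where each SC array lay against both PBS arrays.

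Both SC arrays lay above both PBS arrays in 3840 probe sets (14.2%) and below both in 5464 (20.2%). Counted by gene, they lay above in 1729 (13.7%) and below in 2499 (19.8%). In 3712 genes (29.4%) they lay on opposite sides of the PBS arrays, so with median scaling disagreement between the SC arrays was nearly as common as agreement. Opposite sides were counted with median scaling only. Over the 12626 genes the SD of the log2 difference between the SC arrays was 0.45, against 0.29 between the PBS arrays. Scaling bears on the counts. The median gene of SC replicate 1 lay at -0.11 and that of SC replicate 2 at 0.080 from the PBS mean on the log2 scale, against 0.012 and -0.0038 with the intensities as deposited. Of the genes whose groups did not overlap, 40.9% were higher in SC with median scaling, 50.5% as deposited and 51.8% after quantile normalization. Of the 850 genes at an unadjusted p under 0.05 (6.73%), 33.3% were higher, against 44.1% of 898 as deposited and 47.0% of 949 after quantile normalization. As deposited, both SC arrays lay above in 19.4% of genes and below in 19%, and after quantile normalization in 19.7% and 18.3%. Medians of gene lists are therefore given per SC array relative to the median of all genes on that array.

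**Figure D1:**
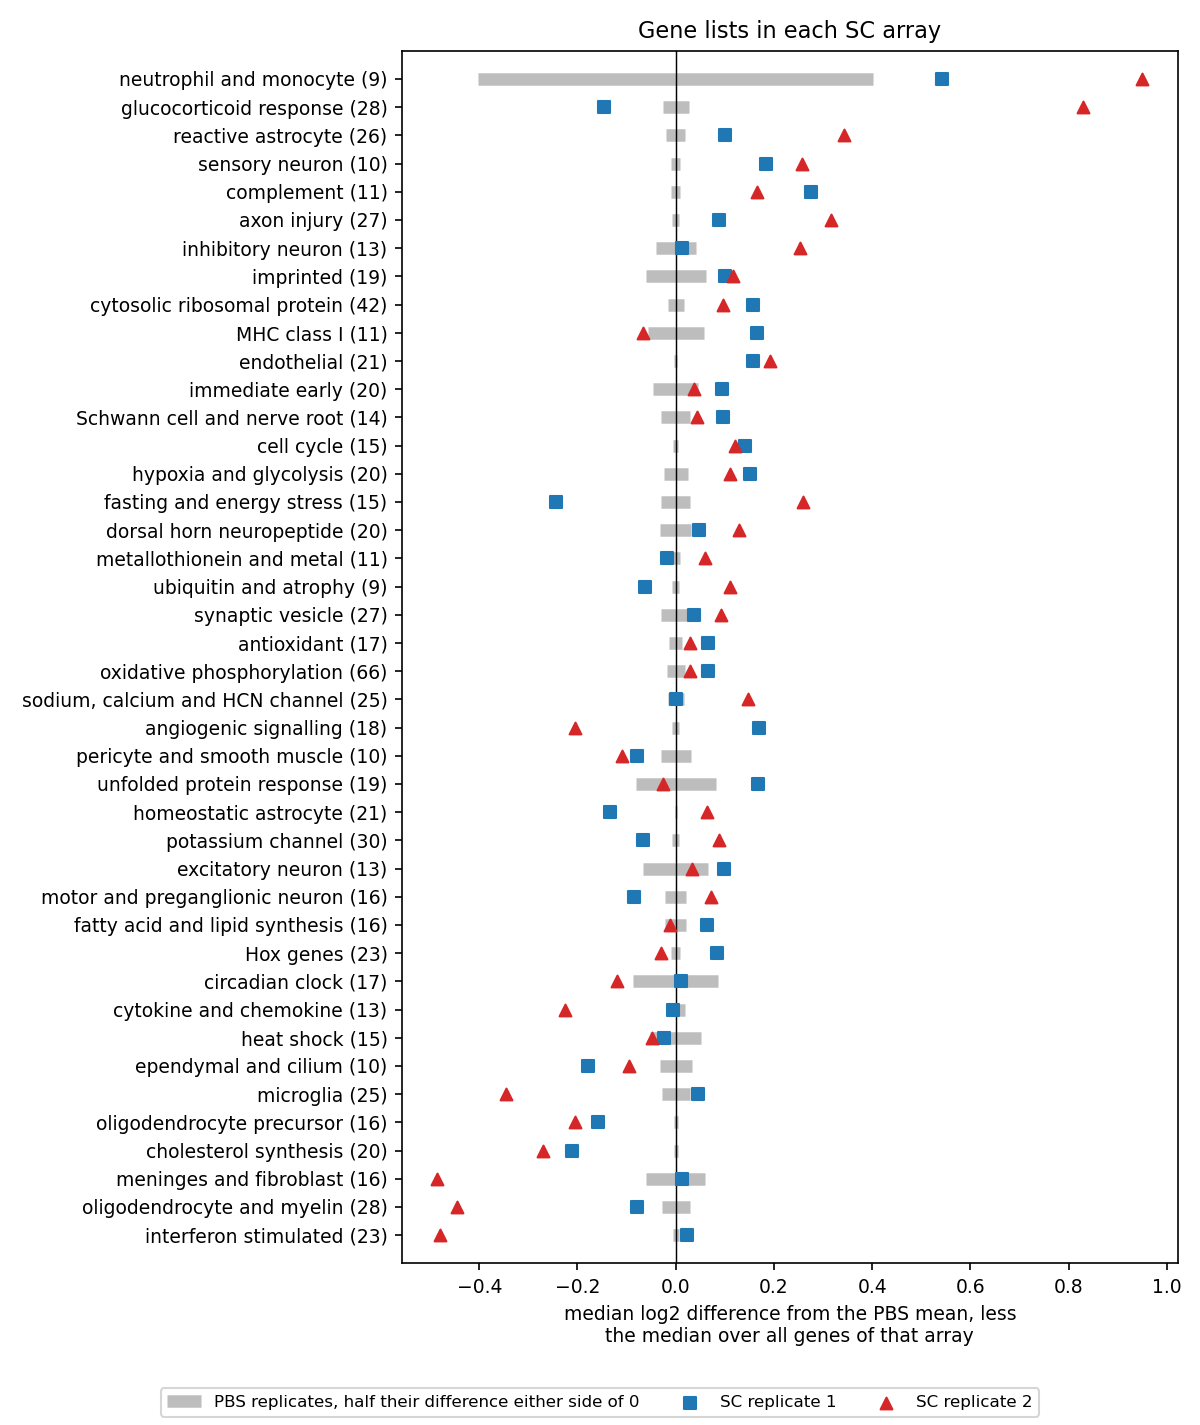
The plot of gene lists shows, for the lists with 9 or more measured genes, the median log2 difference of SC replicate 1 (squares) and SC replicate 2 (triangles) from the PBS mean, less the median of all genes on that array; numbers in brackets are genes measured and grey bars show the PBS replicates. Cholesterol synthesis and oligodendrocyte precursor genes lay left of 0 on both SC arrays, whereas the glucocorticoid list lay at -0.15 on replicate 1 and 0.83 on replicate 2.

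Among the lists with 9 or more measured genes, cholesterol synthesis and myelin had the largest shares of genes below the PBS arrays on both SC arrays with median scaling. Of 28 measured genes of oligodendrocytes and myelin, both SC arrays lay below both PBS arrays in 17 and above in 2, beside 19.8% and 13.7% of all genes. As deposited the counts were 14 and 3, and after quantile normalization 17 and 0. Of the 28, 8 were lower at an unadjusted limma p under 0.05 and 0 were higher, beside 4.49% and 2.24% of all genes. Relative to all genes of the array, the median of the list was -0.079 on SC replicate 1 and -0.44 on SC replicate 2. The shift was thus mostly on replicate 2, while the direction of single genes was often shared.

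Opalin, a membrane glycoprotein of mature oligodendrocytes, read 1643 and 1586 on the PBS arrays and 898 and 266 on the SC arrays. Its log2 difference was -1.66 ± 0.53, with both SC arrays below the PBS pair and replicate 2 far below. Pllp, a proteolipid of myelin, read 3710.3 and 2559.9 in PBS and 1792 and 522 in SC, a log2 difference of -1.64 ± 0.54. Aspa makes the enzyme that frees acetate from N-acetylaspartate for myelin lipids. It read 6209 and 6172 on the PBS arrays and 4186 and 3309 on the SC arrays, a log2 difference of -0.73 ± 0.18, and here the SC arrays were close to each other. Ermn, a cytoskeletal protein of myelinating cells, read 16490.1 and 18051 in PBS and 11667 and 10015 in SC (log2 -0.67 ± 0.18), and both of its probe sets lay below on both SC arrays. Mag, a protein of the inner myelin sheath, read 9444 and 8725 on the PBS arrays and 6989 and 5308 on the SC arrays (log2 -0.57 ± 0.20). The limma adjusted p of these 5 genes lay between 0.518 and 0.600, so none passed the test.

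Mbp, the myelin basic protein, went the other way at its brightest probe set, with 69486 and 75273 in PBS and 80498 and 83563 in SC. Both SC arrays lay above, a log2 difference of 0.18 ± 0.15, but not after quantile normalization. Of its 8 probe sets, both SC arrays lay above in 5 and below in 2, so its probe sets disagree. Fth1, which stores iron and is abundant in oligodendrocytes, read 70965 and 73193 on the PBS arrays and 83668 and 87346 on the SC arrays, and its groups also overlapped after quantile normalization. The summed intensity of the list, these genes included, was 489413 and 517784 in PBS and 480477 and 469846 in SC. In whole tissue, fewer cells of a type and less RNA per cell cannot be told apart. The higher Actb 3' to 5' ratio on both SC arrays moves with these values, and its part in them was not tested.

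Precursor genes of the same lineage lay low on both arrays to a like extent. Of 16 measured, 7 were below in both SC arrays and 0 above (8 and 0 as deposited), beside 19.8% and 13.7% of all genes (19% and 19.4% as deposited), with list medians of -0.16 on SC replicate 1 and -0.20 on SC replicate 2 relative to all genes. Gpr17, a receptor of precursors that are about to mature, read 694 and 939 in PBS and 359.7 and 162 in SC, a log2 difference of -1.63 ± 0.35. Sox10, the transcription factor that sets oligodendrocyte identity, read 3278 and 3391 on the PBS arrays and 2799 and 943 on the SC arrays. Its SC replicate 1 lay only a little below the PBS arrays, and the difference of -1.02 ± 0.46 rests on replicate 2. The other, dimmer probe set of Sox10 did not show that fall. It lay a little below on both SC arrays, at 633 and 590 in PBS and 554 and 523 in SC (log2 -0.17 ± 0.16). Vcan and Cspg4, proteoglycans of precursor cells, were lower by less at their brightest probe sets, with log2 differences of -0.30 ± 0.16 and -0.17 ± 0.16. The 3 probe sets of Vcan disagree. Of the dimmer ones, 1 lay below in both SC arrays (log2 -0.72 ± 0.18) and 1 above in both (log2 0.81 ± 0.27). The dimmer probe set of Cspg4 had a log2 difference of -0.60 ± 0.35, with only SC replicate 2 below both PBS arrays.

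In cholesterol synthesis the SC arrays were alike. Of 20 measured, both SC arrays lay below both PBS arrays in 15 and above in 0 (12 and 0 as deposited, 12 and 1 after quantile normalization), beside 19.8% and 13.7% of all genes. SC replicate 1 lay below in 19 of 20, where 54.2% of all genes did, and SC replicate 2 in 16 of 20, where 29.7% did, and the list medians relative to all genes were -0.21 and -0.27. The differences were small: the median log2 difference was -0.24, and 2 of the 20 reached an unadjusted p under 0.05.

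Cyp51, which removes a methyl group from lanosterol, read 4110.2 and 4393 in PBS and 2437 and 2608 in SC, a log2 difference of -0.75 ± 0.16. Its 3 probe sets disagree, with 2 below and 1 above in both SC arrays. Dhcr7, the last enzyme on the way to cholesterol, read 2796 and 2742 on the PBS arrays and 1948 and 1921 on the SC arrays (log2 -0.51 ± 0.17), and the SC arrays were nearly equal. Idi1, which interconverts the isoprenoid building blocks, read 6506 and 7448 in PBS and 5459 and 5750.2 in SC. Sqle, the first oxygen-using and a rate-limiting step, read 7886 and 7583 on the PBS arrays and 6156 and 6691 on the SC arrays (log2 -0.27 ± 0.15), a small difference on both arrays. Hmgcs1, which acts just before the step blocked by statins, read 38509.6 and 42482 in PBS and 34138 and 36116 in SC (log2 -0.20 ± 0.16), and 4 of its 5 probe sets lay below in both SC arrays. Fatty acid and lipid synthesis genes did not share this: 2 of 16 lay above and 3 below in both.

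**Figure D2:**
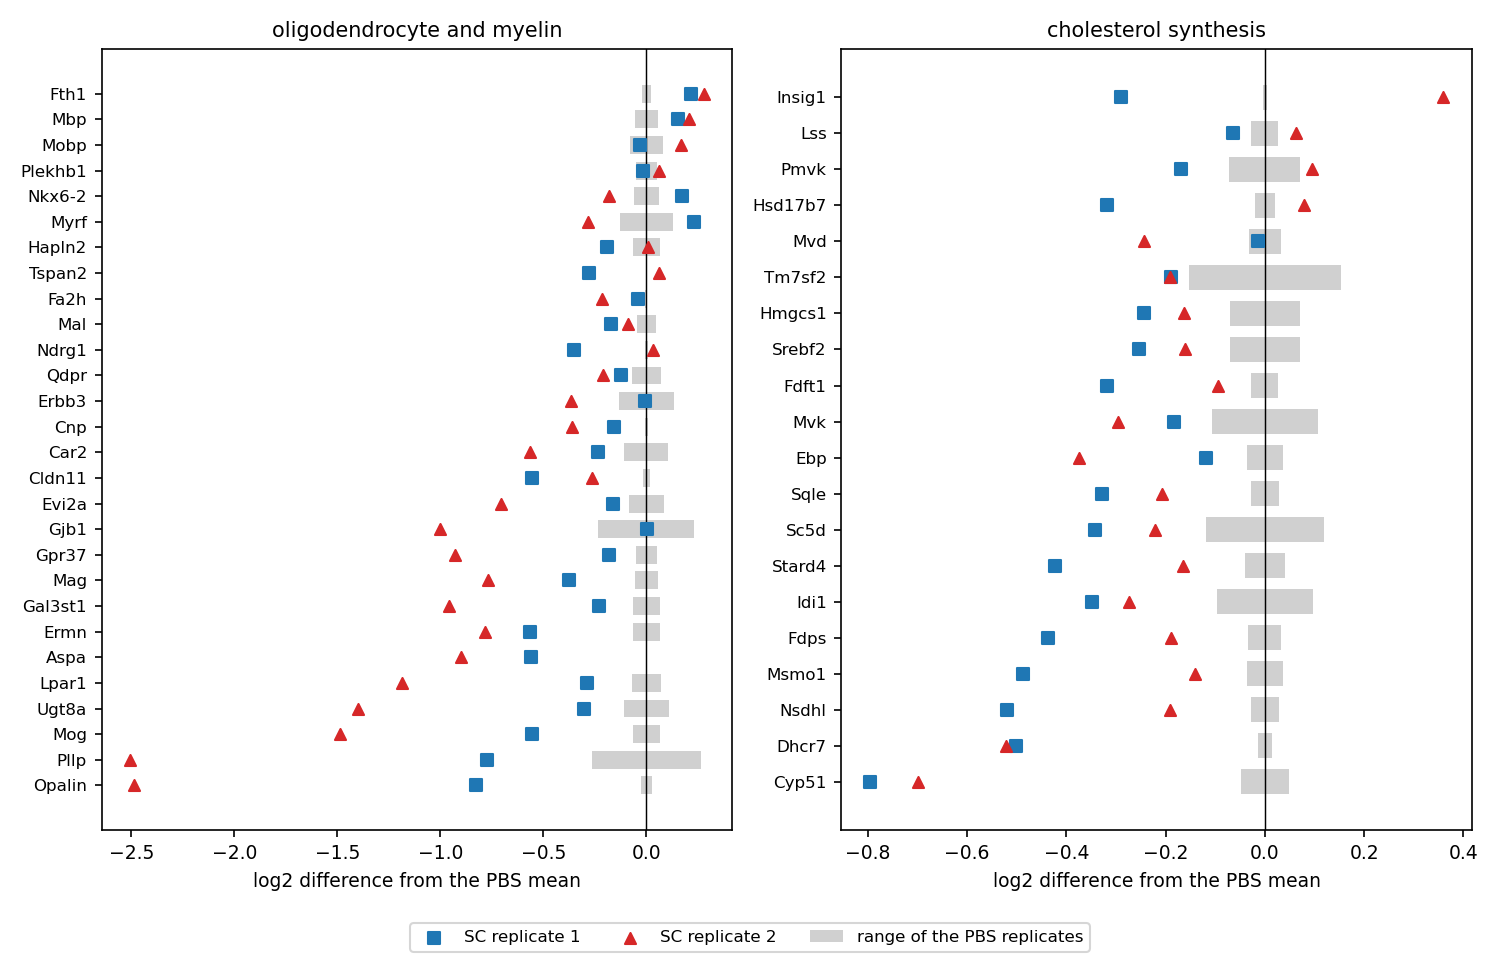
The plot of myelin and cholesterol genes shows each measured gene's log2 difference from the PBS mean for SC replicate 1 (squares) and SC replicate 2 (triangles), with the range of the PBS replicates in grey. Opalin and Pllp lie farthest left on replicate 2, Mbp and Fth1 lie right of 0 with median scaling but not clear of the PBS arrays after quantile normalization, and the cholesterol genes lie between -0.75 and 0.035 for the mean of both arrays. The scales of the panels differ.

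Promoter sequences are shown for 3 of these enzymes because their genes are known to be driven together by sterol-regulated transcription factors, which bind sterol elements beside CCAAT boxes. The windows come from RefSeq, build GRCm38.p6, and lie within the 250 bases before the transcription start. Capitals mark the letters searched, TCACNCCAC (9 bases) for a sterol element and CCAAT for the CCAAT box, on both strands, so that the box can read ATTGG. The Hmgcs1 window is chr13:119690184-119690252 on the plus strand, Cyp51 chr5:4104698-4104756 on the minus strand and Dhcr7 chr7:143830099-143830199 on the plus strand.
Hmgcs1: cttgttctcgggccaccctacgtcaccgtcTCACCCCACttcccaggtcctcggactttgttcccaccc
Cyp51: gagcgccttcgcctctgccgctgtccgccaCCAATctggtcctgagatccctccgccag
Dhcr7: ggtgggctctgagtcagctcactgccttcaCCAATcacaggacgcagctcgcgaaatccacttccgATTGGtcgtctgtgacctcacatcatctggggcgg
Of the 17 list genes with a promoter in the table, 16 held CCAAT (94.1%), beside 37.5% of 27025 genes, and 1 held the sterol element (5.88%), which was Hmgcs1, beside 1.22%. The searches do not overlap each other in letters. A match describes the letters present, not binding.

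The genes with the widest gap below the PBS arrays were of several kinds, and by the way they were picked both SC arrays lay below in each. All 15 stayed below in both SC arrays as deposited and after quantile normalization. Since they were picked for a wide gap, that says little about stability. Serpinb1a, an inhibitor of neutrophil proteases, read 4333 and 3894 on the PBS arrays and 1576 and 1589 on the SC arrays (log2 -1.36 ± 0.17). Its second probe set was dimmer, with SC replicate 2 inside the PBS range. Prr18, which is abundant in oligodendrocytes, read 5099 and 5312 in PBS and 2346 and 2363 in SC (log2 -1.14 ± 0.19), and both of its probe sets lay below. Kcnip3, a calcium sensor that binds potassium channels and the prodynorphin gene, read 705 and 571 on the PBS arrays and 258 and 248 on the SC arrays (log2 -1.25 ± 0.17), again on both of its probe sets. Pdlim2, a scaffold that limits NF-kappaB signalling, read 3093 and 2876 in PBS and 1271 and 1233 in SC. At these brightest probe sets the SC arrays agreed to within a few percent of each other. Picking by a wide gap favours genes whose SC arrays lie close together, so this closeness says little about agreement between the arrays. At the second probe sets the SC arrays lay farther apart, at 1877 and 1253 for Prr18 and at 185 and 133 for Kcnip3. Those of Serpinb1a also lay farther apart at its second probe set.

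Pmp2, a fatty acid carrier of myelinating Schwann cells, read 929.9 and 1333 on the PBS arrays and 375 and 35.5 on the SC arrays. Its log2 difference of -2.87 ± 0.79 rests more on replicate 2, at 0.0313 of the PBS mean, than on replicate 1, at 0.331. Ighm, the heavy chain of immunoglobulin M, read 3135 and 2969.9 in PBS and 636 and 1493 in SC (log2 -1.62 ± 0.39), and 2 of its 3 probe sets lay below in both. The B cell gene Cd79a and the T cell gene Cd3e were under the filter on dim probe sets on these arrays of SCID mice. Scnn1a, Reep6, Scrn2, Lekr1, Pla2r1, Nagpa, Ttc32 and E330020D12Rik completed the 15 with Dbp, which is described with the clock genes. Their log2 differences lay between -1.87 (Scrn2) and -1.03 (Pla2r1), and their adjusted p between 0.514 and 0.633.

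With median scaling, fewer genes lay far above the PBS arrays in both SC arrays than far below. Both were at least 1 log2 unit above both PBS arrays in 5 genes (0.0396%) and at least 1 below in 12 (0.095%). Lcn2, an iron-binding acute-phase protein made by reactive astrocytes, neutrophils and liver, had the widest gap. It read 217 and 135 on the PBS arrays and 735 and 2526 on the SC arrays, a log2 difference of 2.82 ± 0.53 with a limma adjusted p of 0.514. SC replicate 1 was at 4.17 times the PBS mean and SC replicate 2 at 14.3 times, so the arrays agreed in direction and not in size. Lrg1, another acute-phase glycoprotein, read 125 and 174 in PBS and 389 and 404 in SC (log2 1.28 ± 0.40), nearly equal on both SC arrays. Agt, the angiotensin precursor made by astrocytes in the cord, read 5971 and 6250.5 on the PBS arrays and 11701 and 20938 on the SC arrays (log2 1.35 ± 0.28), a bright gene whose groups lie far apart.

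Gpx3, a secreted glutathione peroxidase, read 453 and 656 in PBS and 1708 and 1389 in SC (log2 1.46 ± 0.23). Crh, the corticotropin-releasing hormone of hypothalamic and some spinal neurons, read 339 and 402 on the PBS arrays and 1130.1 and 778 on the SC arrays (log2 1.29 ± 0.22). Ch25h, which makes 25-hydroxycholesterol, an inhibitor of cholesterol synthesis, read 88.1 and 236 in PBS and 545 and 448 in SC (log2 1.59 ± 0.41). In all 3 the SC arrays lay above both PBS arrays, and in Gpx3 and Crh replicate 1 was the higher. Grm2, a glutamate receptor that damps release at nerve endings, read 53.1 and 87.1 on the PBS arrays and 311 and 217 on the SC arrays, close to or under the filter intensity of 155.2 on the PBS arrays. Dpep1, a kidney dipeptidase, read 33.5 and 11.1 in PBS and 116 and 726 in SC, and its size rests on replicate 2. Of the 15 genes, 14 kept both SC arrays above under all 3 scalings, and Dpep1 as deposited was under the filter. These genes too were picked for a wide gap, so the count says little about stability. The others were Afmid, Tlr9, Capn8, Rpp21, Kdelr3, Hmbox1 and Psg28, with log2 differences between 0.92 (Hmbox1) and 1.69 (Capn8).

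**Figure D3:**
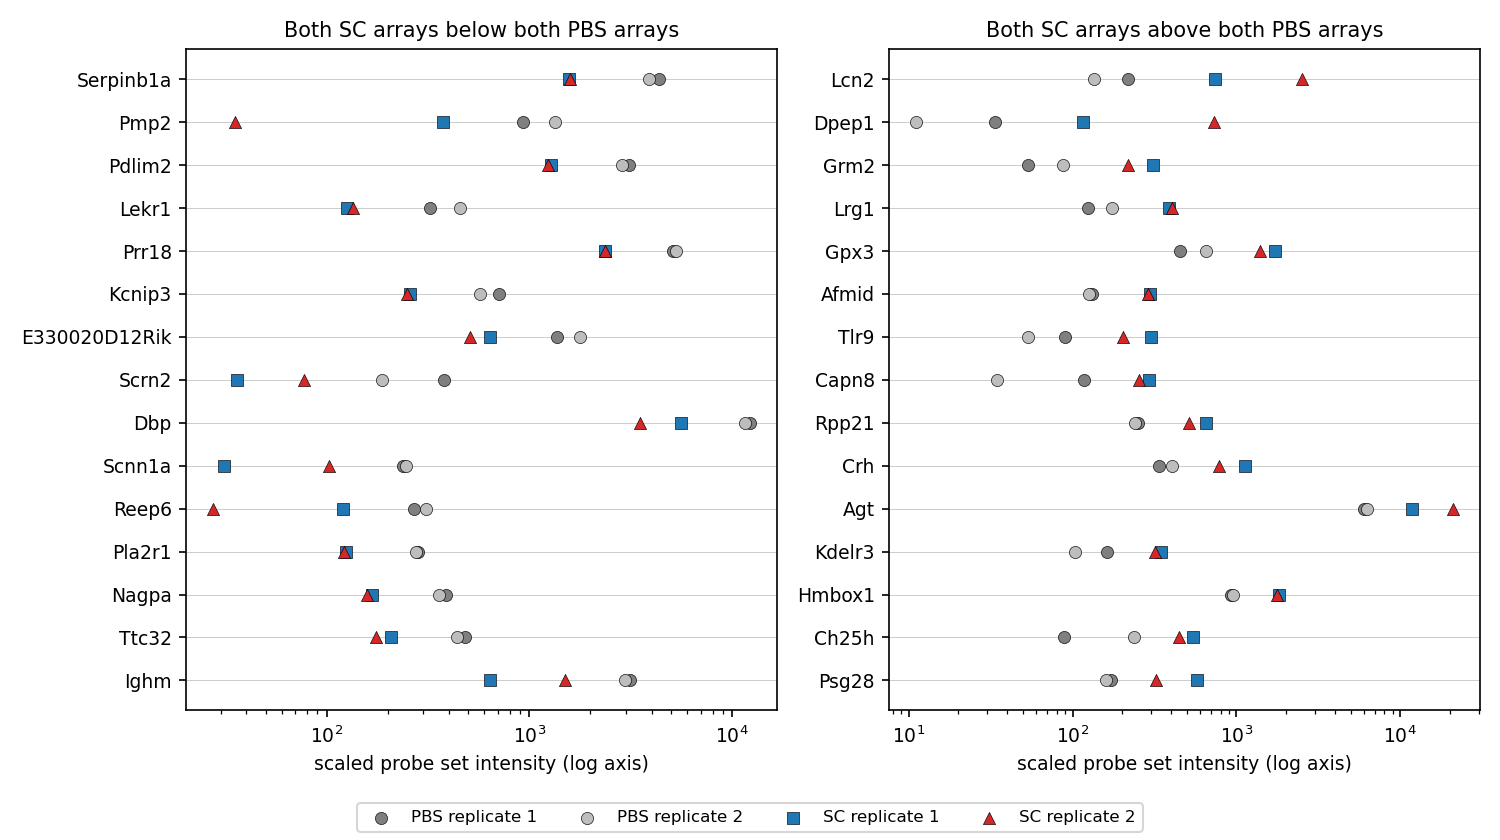
The plot of the widest gaps shows the scaled intensity on a log axis for the 15 genes with both SC arrays below (left) and the 15 with both above (right), 1 point per array. In Prr18, Kcnip3, Pdlim2 and Hmbox1 the SC arrays nearly coincide, whereas in Lcn2, Dpep1 and Pmp2 replicate 2 is farther from the PBS arrays than replicate 1.

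Reactive astrocyte genes lay above the PBS arrays in both SC arrays more often than below, and farther above on replicate 2. Of 26 measured, both SC arrays lay above in 10 and below in 3 (12 and 4 as deposited, 13 and 4 after quantile normalization), beside 13.7% and 19.8% of all genes (19.4% and 19% as deposited, 19.7% and 18.3% after quantile normalization). At an unadjusted limma p under 0.05, 7 were higher and 1 lower, beside 2.24% and 4.49% of all genes. The list medians relative to all genes were 0.10 on SC replicate 1 and 0.34 on SC replicate 2. Without SC replicate 2 the median log2 difference of the list, not taken relative to all genes, was -0.0066, against 0.24 with both. Gfap, the intermediate filament that defines reactive astrocytes, split the SC arrays: it read 6653 and 7913 on the PBS arrays and 4632 and 15348 on the SC arrays. At this brightest probe set replicate 1 was at 0.636 and replicate 2 at 2.11 times the PBS mean. The log2 difference there, 0.22 ± 0.50 (limma adjusted p 0.955), therefore describes neither array. All 3 probe sets of Gfap put the SC arrays on opposite sides, but at the others replicate 2 lay only a little above PBS. One read 7693 and 8507 in PBS and 4078 and 8885 in SC (log2 -0.42 ± 0.35). The other read 6186 and 6768 in PBS and 3049 and 7057 in SC (log2 -0.48 ± 0.37).

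Some reactive genes lay lower on both arrays. Emp1, a membrane protein of growing cells, read 382 and 481 in PBS and 232 and 253 in SC (log2 -0.76 ± 0.18), and Fabp7, the brain fatty acid carrier, read 5340.3 and 5521 on the PBS arrays and 4252 and 2942 on the SC arrays. Genes of resting astrocytes were mixed, with 6 of 21 above and 5 below in both SC arrays, and 3 and 7 after quantile normalization, beside the shares of all genes just given. Slc7a10, an amino acid transporter of astrocytes, read 3176 and 3278 in PBS and 2128 and 1874 in SC (log2 -0.69 ± 0.16), lower on both arrays under all 3 scalings. Mlc1, an astrocyte protein of vessel contacts, read 6639 and 7097 on the PBS arrays and 4879.9 and 5834 on the SC arrays. Apoe, the lipid carrier, read 38252 and 37993 in PBS and 44321 and 47484 in SC (log2 0.27 ± 0.15), higher on both.

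**Figure D4:**
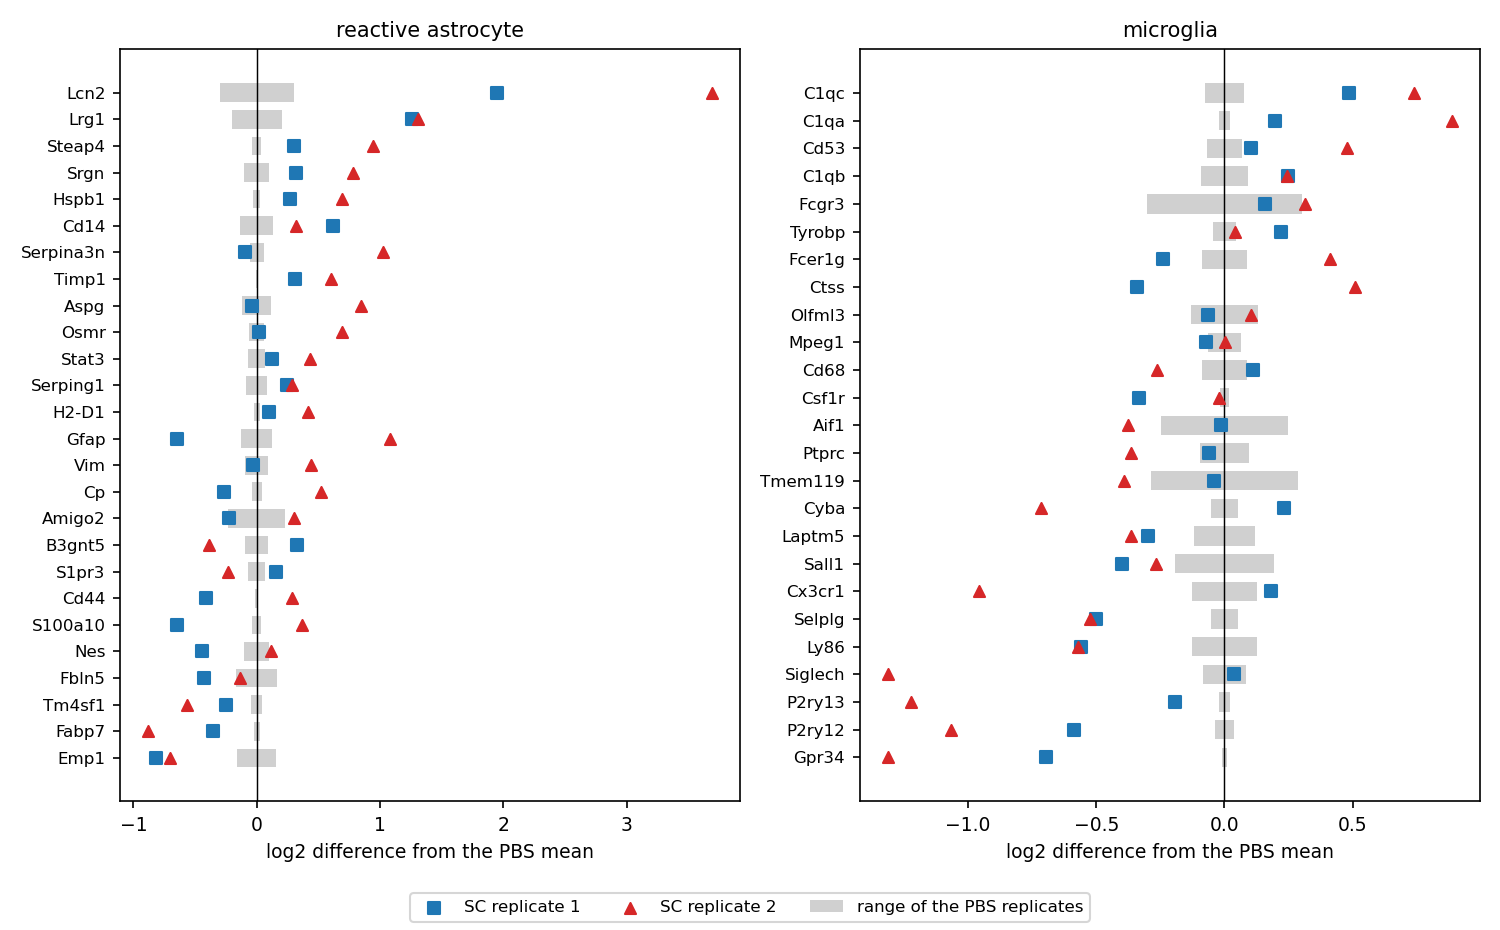
The plot of astrocyte and microglia genes shows log2 differences from the PBS mean per SC array, with the PBS range in grey. Lcn2 and Lrg1 lie right of the PBS range on both SC arrays, Gfap lies left of it on replicate 1 and right of it on replicate 2, and the microglia genes Gpr34, P2ry12, Selplg and Ly86 lie left of it on both.

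Microglia genes lay on both sides of the PBS arrays. Of 25 measured, 8 were below and 4 above in both SC arrays under median scaling, 8 and 4 as deposited, and 7 and 4 after quantile normalization, beside 19.8% and 13.7% of all genes with median scaling, 19% and 19.4% as deposited and 18.3% and 19.7% after quantile normalization. The share above was thus near that of all genes. Among the genes below were surface receptors, while Cx3cr1, Tmem119 and Siglech, which also mark resting microglia, were neither above nor below in both. P2ry12, their receptor for released ADP, read 797 and 755 on the PBS arrays and 508 and 358 on the SC arrays (log2 -0.83 ± 0.20). Gpr34, a lysophospholipid receptor, read 193 and 195 in PBS and 110.3 and 63.0 in SC. Selplg, an adhesion ligand, read 1235 and 1330.3 on the PBS arrays and 898 and 883 on the SC arrays. Ly86, a partner of a relative of the toll-like receptors, read 1319 and 1102 in PBS and 809 and 804 in SC, and both genes were lower by a like amount on each SC array. The 4 genes above included the 3 chains of C1q, which starts the complement cascade. Aif1, a general marker of microglia, read 243 and 165 on the PBS arrays and 198 and 149 on the SC arrays and overlapped between groups. The list medians relative to all genes were 0.046 on SC replicate 1 and -0.35 on SC replicate 2, so the lower median rests on replicate 2.

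Complement genes lay above in both SC arrays in 5 of 11 and below in 2 (5 and 1 as deposited), beside 13.7% and 19.8% of all genes. C1qc read 958 and 858 in PBS and 1280.3 and 1529 in SC (log2 0.61 ± 0.17) and C1qa read 1325 and 1286 on the PBS arrays and 1499 and 2433 on the SC arrays (log2 0.54 ± 0.24). Serping1, which inhibits the first complement enzymes, read 2310.2 and 2601 in PBS and 2910.2 and 2997 in SC. Cd55, which shields cells from complement, lay lower, with 571 and 470.3 on the PBS arrays and 342 and 345 on the SC arrays (log2 -0.56 ± 0.20). The list medians were 0.28 and 0.16, above 0 on both arrays.

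Interferon-stimulated genes were lower in both SC arrays in 11 of 23 and higher in 1, beside 19.8% and 13.7% of all genes (8 and 1 as deposited). The list medians relative to all genes were 0.022 on SC replicate 1 and -0.48 on SC replicate 2, so the size of the shift belongs to replicate 2. Gbp2, a GTPase against pathogens, read 414 and 328 in PBS and 209 and 103 in SC (log2 -1.18 ± 0.40), with 1 of its 2 probe sets below in both. Ifit1, which binds viral RNA, read 303 and 398 on the PBS arrays and 203 and 168 on the SC arrays (log2 -0.83 ± 0.21). Rsad2, an antiviral enzyme, was the exception, with 405 and 311 in PBS and 514 and 507 in SC. With the filter at the 60th percentile of intensity the median log2 difference was -0.16, against -0.34 for all 23.

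Antigen presentation genes divided by class. Of 6 genes of the class II pathway, 3 were lower in both SC arrays and 0 higher, under all 3 scalings, beside 19.8% and 13.7% of all genes with median scaling. H2-Aa, an antigen-presenting chain, read 878 and 768 on the PBS arrays and 647 and 308 on the SC arrays. Its relative H2-Eb1 read 635 and 653 in PBS and 473 and 286 in SC. The peptide loader H2-DMa read 816 and 782 on the PBS arrays and 648 and 558 on the SC arrays. Replicate 2 was the lower in these 3 genes. The summed intensity of the class II list was 13289 and 13291 in PBS and 10771 and 15574 in SC, highest on replicate 2, and its brightest gene Ctss, a protease that also marks microglia, read 9426 and 9471 in PBS and 7446 and 13446 in SC. Class I genes, which present peptides from inside the cell, showed no such pattern, with 2 of 11 above and 0 below in both. Il33, an alarm cytokine held in the nuclei of oligodendrocytes and astrocytes, read 4697 and 4239.6 on the PBS arrays and 2264 and 1557 on the SC arrays (log2 -1.24 ± 0.27), lower on both arrays. Of 13 cytokine and chemokine genes, 5 lay below and 1 above in both, but 1 below and 1 above after quantile normalization. The gene above, the chemokine Ccl4, read 130.2 and 285 in PBS and 444 and 318 in SC.

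Of the lists plotted, the glucocorticoid list had the SC arrays farthest apart. All 28 of its measured genes lay above both PBS arrays on SC replicate 2, where 48.9% of all genes did. On SC replicate 1, 18 of the 28 lay below both PBS arrays and 5 above, where 54.2% of all genes lay below and 22.2% above. The list medians relative to all genes were -0.15 and 0.83. Both SC arrays lay above in 5 of 28 genes and below in 0, beside 13.7% and 19.8% of all genes, and in 10 and 0 as deposited, beside 19.4% and 19%. Without SC replicate 1 the median log2 difference was 0.91, without SC replicate 2 it was -0.25, and with both it was 0.28.

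Sgk1, a kinase that responds to glucocorticoids, read 23878 and 27196 on the PBS arrays and 14695 and 43799.5 on the SC arrays, on either side of the PBS arrays by almost the same log2 amount. Its log2 difference between groups was -0.0062 ± 0.63. Tsc22d3, which carries part of the anti-inflammatory effect of glucocorticoids, read 5445 and 5656 in PBS and 3472 and 6721 in SC. Fkbp5, which binds the receptor and feeds back on it, read 1209 and 1238 on the PBS arrays and 1476 and 5138 on the SC arrays, with replicate 1 at 1.21 and replicate 2 at 4.2 times the PBS mean, and both of its probe sets lay above. Cdkn1a, an inhibitor of the cell cycle that glucocorticoids and cell stress both raise, read 2423 and 3461 in PBS and 2110.3 and 21915 in SC, 7.45 times the PBS mean on replicate 2 alone. In its other probe set both SC arrays lay above, at 653 and 727 in PBS and 886 and 4825 in SC. Cebpd, a transcription factor of inflammation and fat cells, read 782 and 736 on the PBS arrays and 891 and 2666 on the SC arrays. Sult1a1, a sulphotransferase, read 1009 and 1065 in PBS and 1303 and 3199.6 in SC. Both genes were slightly above the PBS arrays on replicate 1 and far above on replicate 2. Plin4, which coats lipid droplets, read 518 and 639 on the PBS arrays and 615 and 3304 on the SC arrays. The same array had the Xist value that goes against its label and the highest Actb 3' to 5' ratio, and the part of neither was tested.

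Promoters of 3 genes of this list are printed because they held the glucocorticoid receptor's element. The letters searched were GNACA and TGTNC with any 3 bases between them, which read the same on both strands. The windows are from RefSeq, build GRCm38.p6, all on the plus strand: Sgk1 at chr10:21993672-21993744, Mt1 at chr8:94178965-94179037 and Map3k6 at chr4:133240607-133240679. Capitals mark the element.
Sgk1: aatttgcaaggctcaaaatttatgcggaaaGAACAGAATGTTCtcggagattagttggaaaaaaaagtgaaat
Mt1: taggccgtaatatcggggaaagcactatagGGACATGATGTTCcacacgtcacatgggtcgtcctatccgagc
Map3k6: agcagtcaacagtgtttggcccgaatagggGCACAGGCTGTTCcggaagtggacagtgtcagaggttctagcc
The element began 188, 94 and 181 bases before the start, in that order. It was found in 3 of 24 list genes with a promoter in the table (12.5%), beside 0.440% of 27025 genes. On the arrays SC replicate 2 lay above both PBS arrays for all 3 genes and SC replicate 1 for none: Mt1, a metal-binding protein, read 21459 and 19675 in PBS and 21406 and 49098 in SC, and the stress kinase Map3k6 read 225 and 239 on the PBS arrays and 187 and 575 on the SC arrays. On SC replicate 2 this held for all 28 measured genes of the list, so it does not set apart the genes with the element. Here too a match describes letters and not binding.

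**Figure D5:**
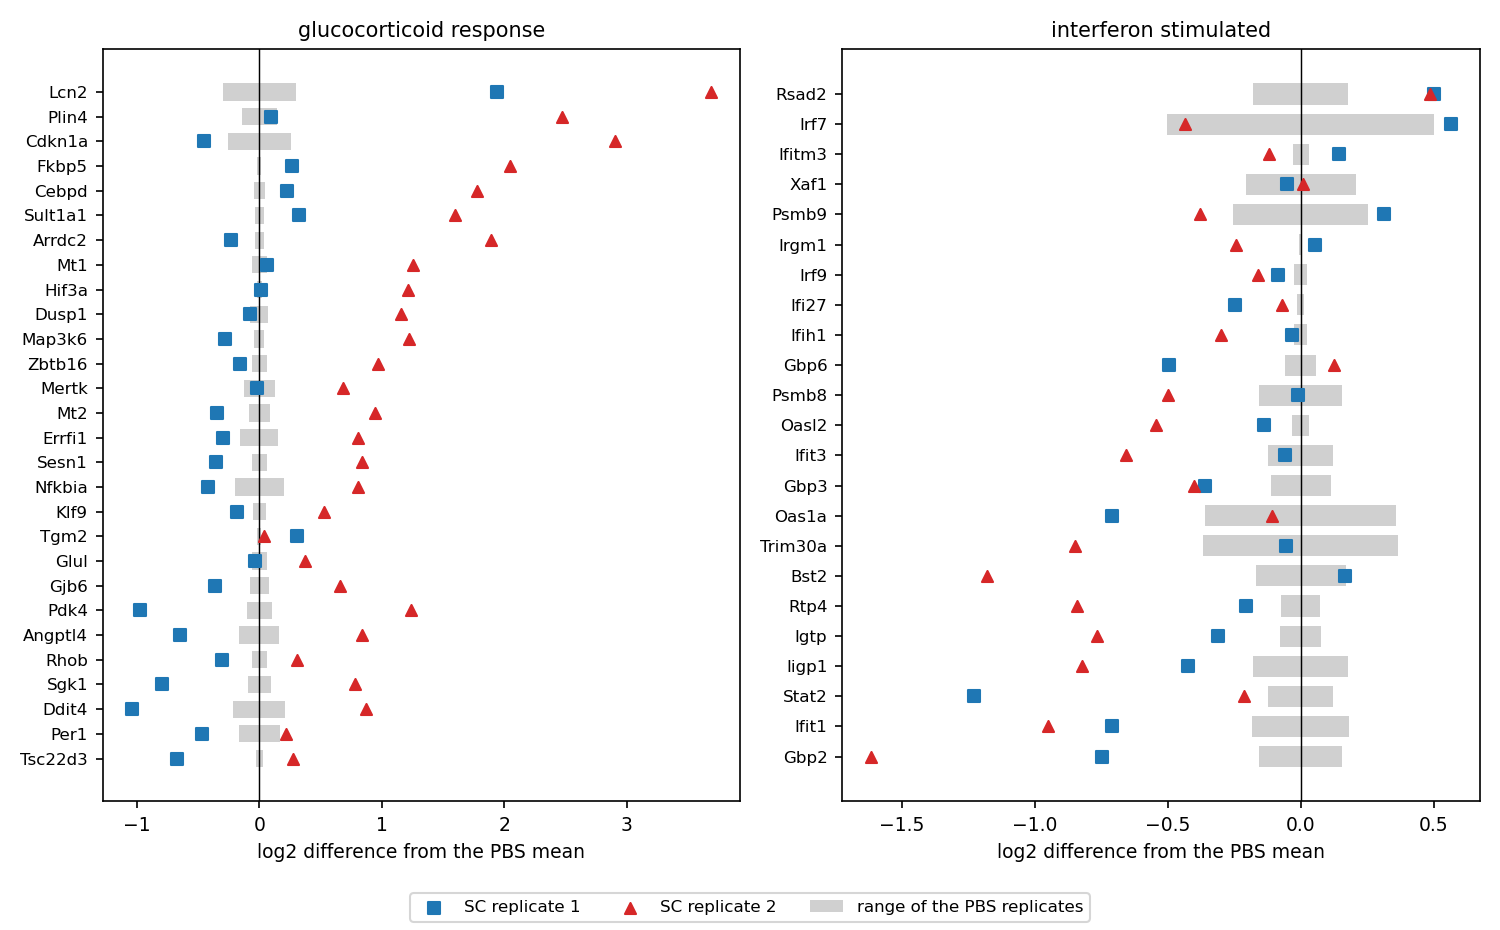
The plot of glucocorticoid and interferon genes shows log2 differences from the PBS mean per SC array, with the PBS range in grey. Every glucocorticoid gene lies right of 0 on SC replicate 2 while most lie left of 0 on SC replicate 1, and Gbp2, Ifit1 and Stat2 lie left of the PBS range on both arrays.

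Other genes stood out on a single SC array, which here means far from both PBS arrays while the other SC array lay within 0.25 log2 units of their range or inside it. Counted without that limit on the other array, SC replicate 2 alone was at least 1 log2 unit above both PBS arrays in 75 genes (0.594%) and below in 116 (0.919%), against 20 (0.158%) and 83 (0.657%) for SC replicate 1 alone. Left as the only SC array, replicate 2 gave 10 probe sets at an adjusted limma p under 0.05, with the lone array assumed to vary like the other groups. They included probe sets for Maff, Cdkn1a, Xist and Sprr1a. Replicate 1 as the only SC array gave 0, with a smallest adjusted p of 0.121 and 3781 at an unadjusted p under 0.05.

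On replicate 2, Maff, a small stress-induced transcription factor, read 193 and 172 in PBS and 179.8 and 1465 in SC. Ctla2a, a protease inhibitor, read 1103 and 811 on the PBS arrays and 912 and 6329.6 on the SC arrays. Pnpla2, the lipase that opens fat stores, read 744 and 871 in PBS and 683 and 3393 in SC. Arrdc2, Zfand4 and Tspan4 were alike, at 3.94, 3.96 and 3.58 times the PBS mean on replicate 2 and below the PBS mean on replicate 1. On the low side, Ano1, a chloride channel, read 624 and 772 on the PBS arrays and 878 and 152 on the SC arrays, and Insc, an adaptor in cell polarity, read 907 and 1120.0 in PBS and 847 and 280.1 in SC. Emid1, Fgr, Jak3, B3gntl1, Gm11110, Olfr288 and 0610040J01Rik belonged to the same 10 genes with Sox10, and all of these but Emid1 and Sox10 were dim on the PBS arrays, at 364 or less. In Insc, Emid1 and Sox10 replicate 1 lay slightly below both PBS arrays too.

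The genes that stood out on replicate 1 were mostly dim. St6galnac1, a sialyltransferase, read 187 and 192 on the PBS arrays and 8.34 and 222 on the SC arrays. Zfp691, a zinc finger protein, read 499 and 655 in PBS and 122 and 589 in SC, and Dact2, a regulator of Wnt signalling, read 388 and 244 on the PBS arrays and 32.5 and 299 on the SC arrays. The others that stood out downward on replicate 1 were 2900093K20Rik, Mamdc4, Egfl8, Tbc1d10a, Tmem213, Pigb and Zdhhc12, and in Egfl8 replicate 2 lay slightly below both PBS arrays too. C1ra, a complement protease, was above on replicate 1 alone, with 48.0 and 105 in PBS and 216 and 75.6 in SC, close to the filter intensity. Slc35d2, Mxd3, Orly, Bank1, Brpf3, Fbxw16, Slc36a3, 5031426D15Rik and 4931408D14Rik were the other genes that stood out upward on replicate 1, none above 406 on any of the 4 arrays. In Slc35d2, Mxd3 and Slc36a3 replicate 2 lay slightly above both PBS arrays too.

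Genes that answer to axon injury were split. Of 27 measured, both SC arrays lay above in 6 and below in 5, and above in 11 and below in 3 as deposited, beside 13.7% and 19.8% of all genes with median scaling and 19.4% and 19% as deposited. Sprr1a, which injured neurons switch on, read 112 and 141 on the PBS arrays and 187 and 2299 on the SC arrays, 1.47 times the PBS mean on replicate 1 and 18.1 times on replicate 2. Atf3, the injury-induced transcription factor, read 239 and 135 in PBS and 166 and 679.8 in SC, above on replicate 2 and inside the PBS range on replicate 1. Stmn4, a stathmin, read 8967 and 8258 on the PBS arrays and 6373 and 5276 on the SC arrays. Tubb2b, a tubulin, read 6817 and 7089.6 in PBS and 5117 and 5716 in SC, and both of these genes lay below the PBS arrays on each SC array. The higher group means of Sprr1a and Atf3 thus rest on replicate 2.

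Dorsal horn neuropeptides included 5 whose higher values both SC arrays shared under all 3 scalings, Crh among them. Of 20 measured in the list, 6 lay above and 3 below in both, beside 13.7% and 19.8% of all genes. At an unadjusted limma p under 0.05, 4 were higher and 0 lower, beside 2.24% and 4.49% of all genes. Cartpt, a peptide of preganglionic and dorsal horn neurons, read 702 and 633 on the PBS arrays and 1183 and 1373 on the SC arrays (log2 0.91 ± 0.24). Pnoc, the precursor of nociceptin, read 379.9 and 436 in PBS and 821 and 647 in SC (log2 0.80 ± 0.21). Tac1, the precursor of substance P, read 3379 and 4770.4 on the PBS arrays and 5470.2 and 7114 on the SC arrays (log2 0.63 ± 0.23). Npy, a peptide of inhibitory interneurons, read 1184 and 1551 in PBS and 1581 and 2741 in SC. Tac2, which yields neurokinin B, lay lower, with 1109 and 1170.1 on the PBS arrays and 891 and 938 on the SC arrays.

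Genes listed for sensory neurons lay above in both SC arrays in 4 of 10 and below in 1, beside 13.7% and 19.8% of all genes, the shares against which the counts of the lists that follow can be read. Beside Tac1 they held Th, the first enzyme of dopamine synthesis, at 293 and 332 in PBS and 743 and 485 in SC (log2 0.89 ± 0.23), and Pou4f1, a sensory transcription factor, at 564 and 552 on the PBS arrays and 817 and 891 on the SC arrays, though 1 of its 2 probe sets lay below. The defining markers Scn10a, Trpv1 and Avil were under the filter on these arrays. Motor and preganglionic genes were mixed, with 3 of 16 above and 4 below. Chodl, a lectin of fast motor neurons, read 4814 and 3136 in PBS and 1681 and 1817 in SC (log2 -1.14 ± 0.24), lower on both SC arrays, while Isl1, a transcription factor of motor and sensory neurons, read 386 and 452 on the PBS arrays and 545 and 532 on the SC arrays, higher on both. The other probe set of Isl1 split the SC arrays, at 192 and 266 in PBS and 329 and 187 in SC.

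Inhibitory, excitatory and synaptic vesicle genes showed no shared direction. Both SC arrays lay above in 3 of 13, 2 of 13 and 2 of 27, and below in 2, 2 and 2. The vesicle genes depended on the scaling, with 10 above and 3 below as deposited and 4 above and 6 below after quantile normalization. Gabra2, a subunit of the GABA-A receptor, was lower on both arrays, with 3639.9 and 3939 in PBS and 2022 and 2253 in SC (log2 -0.82 ± 0.16), in 2 of its 4 probe sets. Cplx2, which primes vesicles for release, read 3842 and 4541 on the PBS arrays and 2413 and 2906 on the SC arrays (log2 -0.65 ± 0.18), in 1 of its 3 probe sets. Nrgn, a calmodulin-binding protein of excitatory neurons, read 277 and 463 in PBS and 599 and 627 in SC, higher on both. Of 30 potassium channel genes 5 lay above and 6 below in both, and of 25 sodium, calcium and HCN channel genes 5 and 2. Hcn2, a pacemaker channel, read 2889.6 and 3089 on the PBS arrays and 1540.2 and 2373 on the SC arrays (log2 -0.64 ± 0.23), and Kcnq5, a channel that steadies the resting potential, read 399.9 and 544 in PBS and 711 and 732 in SC. The other probe sets of Kcnq5 were not higher, at 437 and 411 in PBS and 378 and 392 in SC, and at 188 and 283 in PBS and 220 and 230 in SC.

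Clock genes lay on both sides of the PBS arrays. Dbp, a transcription factor whose level swings through the day, read 12217 and 11572 on the PBS arrays and 5605 and 3502 on the SC arrays (log2 -1.42 ± 0.41, adjusted p 0.538), lower on both arrays in both of its probe sets. Per3, a repressor of the clock, read 1428 and 1808 in PBS and 913 and 586 in SC (log2 -1.11 ± 0.29), lower in all 4 of its probe sets. Ciart, another repressor, read 809 and 665 on the PBS arrays and 423 and 591 on the SC arrays. Arntl, the activator whose daily peak lies opposite to that of Dbp, read 497 and 624 in PBS and 854 and 1046 in SC (log2 0.74 ± 0.22), higher on both arrays in 1 of its 2 probe sets. Per1, which glucocorticoids also drive, split the arrays, with 1227 and 1557 on the PBS arrays and 993 and 1616 on the SC arrays. Of the 17 genes of the list, 7 lay below and 3 above in both, beside 19.8% and 13.7% of all genes, and 7 below and 5 above as deposited, beside 19% and 19.4%. Hlf, a relative of Dbp, was among the genes above with median scaling and as deposited but not after quantile normalization, and Clock, Npas2 and Tef were neither above nor below in both. The sources used here do not name the time of day of sampling. The E-box CACGTG, through which the clock acts, was found within 250 bases before the start in 5 of 15 clock genes (33.3%), beside 6.86% of 27025 genes.

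Stress and activity genes gave less. Among 15 heat shock genes 5 lay below and 2 above in both SC arrays, but 2 and 3 as deposited. Hspa1b, the inducible chaperone, read 3981 and 7685 in PBS and 2762 and 1212 in SC (log2 -1.58 ± 0.57), lower on both SC arrays, though the PBS arrays differed widely themselves. Cryab, a small chaperone of glia, read 17220.5 and 18086 on the PBS arrays and 13357 and 13035 on the SC arrays (log2 -0.42 ± 0.17), lower on both, and its relative Hspb1 read 3020.0 and 3144 in PBS and 3730.2 and 4983 in SC (log2 0.48 ± 0.19), higher on both. Fos, a marker of recent neuronal activity, read 6692 and 6447 on the PBS arrays and 6082 and 5969 on the SC arrays (log2 -0.12 ± 0.18), and its groups overlapped as deposited. Of 20 immediate early genes, 2 lay above and 1 below in both.

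Metabolic lists depended on the scaling. Of 66 genes of oxidative phosphorylation, 15 lay above and 10 below in both SC arrays, 24 and 8 as deposited, and 6 and 16 after quantile normalization, so the direction flips. Of all genes, 13.7% lay above and 19.8% below with median scaling, 19.4% and 19% as deposited, and 19.7% and 18.3% after quantile normalization. Ribosomal protein genes lay above in 16 and below in 2 of 42, and in 9 and 4 after quantile normalization. Hypoxia and glycolysis genes lay above in 9 of 20 and below in 0, beside 13.7% and 19.8% of all genes, and in 6 and 0 after quantile normalization, beside 19.7% and 18.3%. Hk2, a hexokinase, read 392 and 344 in PBS and 449.7 and 491 in SC, and Ldha, which makes lactate, read 5303 and 7437 on the PBS arrays and 8138 and 7977 on the SC arrays, whose groups overlapped after quantile normalization. Of 15 genes of fasting and energy stress, 11 lay above both PBS arrays on SC replicate 2 and 10 below both on SC replicate 1, where 48.9% and 54.2% of all genes did. Relative to all genes of each array the list medians were -0.24 on SC replicate 1 and 0.26 on SC replicate 2. Acot2, a mitochondrial thioesterase, read 1208 and 1518 in PBS and 741 and 783 in SC (log2 -0.81 ± 0.30), lower on both. Of 9 genes of ubiquitin and atrophy, 1 lay above and 1 below in both, and of 11 of metallothionein and metal handling 1 and 1. The unfolded protein response gave 3 above and 0 below of 19, antioxidant genes 5 and 3 of 17 (2 and 5 after quantile normalization), imprinted genes 4 and 3 of 19, cell cycle genes 2 and 0 of 15 and angiogenic signalling 5 and 5 of 18.

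Markers of other cells in or beside the cord were checked. Of the lists plotted, the neutrophil list differed most between the PBS arrays themselves: S100a8 read 776 and 118 on the PBS arrays and 652 and 1578 on the SC arrays, S100a9 435 and 79.5 in PBS and 352 and 522 in SC and Ngp 830.4 and 169 on the PBS arrays and 526 and 1253 on the SC arrays. Their groups overlap. The list of 9 measured genes had a median log2 difference of 0.82, which was 1.63 without PBS replicate 1 and 0.00089 without PBS replicate 2. Its summed intensity was 6344 and 4224 in PBS and 5674 and 11123 in SC, over 17 genes on the array with none at 0. Lcn2 belongs to that list too, and is also counted in the reactive astrocyte and glucocorticoid lists. Of the 9 measured neutrophil genes it alone lay above both PBS arrays on both SC arrays. With no filter on dim probe sets, 4 of 17 did.

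Genes of meninges and fibroblasts lay below in both SC arrays in 6 of 16 and above in 3. Mgp, a matrix protein, read 1845 and 2191 in PBS and 1108 and 1316 in SC. Col3a1, a collagen, read 2349 and 3396 on the PBS arrays and 1833 and 1171 on the SC arrays, and both were lower on each SC array. Foxc1, a transcription factor of the meninges, read 246 and 339 in PBS and 457 and 531 in SC, higher. Its other probe set was not higher, at 324 and 383 in PBS and 281 and 370 in SC. The summed intensity of the list was 37872 and 46312 in PBS and 43805 and 38285 in SC, without an order by group, and the list medians relative to all genes were 0.014 and -0.49. Of 14 Schwann cell and nerve root genes, 3 lay above and 5 below in both, and Drp2, a scaffold of Schwann cells, read 2439 and 2667 on the PBS arrays and 3538 and 3975 on the SC arrays, higher on both SC arrays, against Pmp2, which was lower. In the other probe set of Drp2 both SC arrays lay within the PBS range. Endothelial genes were mixed, with 7 of 21 above and 5 below. Pltp, a phospholipid carrier, read 12363 and 12545 in PBS and 7793 and 6337 in SC (log2 -0.82 ± 0.19), lower on both arrays in both probe sets. Angpt2, which loosens vessels, read 419.7 and 139 on the PBS arrays and 512 and 668 on the SC arrays, with PBS replicate 2 far below the rest. Of 10 ependymal genes 2 lay above and 3 below in both, and of 10 pericyte genes 0 and 2. Rarres2, the chemokine chemerin, read 345 and 327 in PBS and 610.4 and 616 in SC (log2 0.82 ± 0.15), higher and nearly equal on both SC arrays. Its other probe set did not share this, at 263 and 297 in PBS and 296 and 231 in SC. Of the choroid plexus, skeletal muscle and adipocyte lists 3, 2 and 1 genes passed the filter.

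The level of the segment was checked with the Hox genes, which mark position along the cord. Both SC arrays lay above in 4 of 23 and below in 3, with list medians of 0.083 and -0.03 relative to all genes. Hoxd10, a gene of the lumbar cord, read 2453 and 2996 on the PBS arrays and 4768 and 4431 on the SC arrays (log2 0.76 ± 0.21), higher on both SC arrays. Hoxc5, a gene of the cervical cord, was dim and read 282 and 237 in PBS and 134 and 164 in SC (log2 -0.71 ± 0.18), lower on both. The other genes above in both were Hoxa3, Hoxb6 and Hoxa11, and the others below were Hoxa7 and Hoxc8. Other lumbar genes lay neither above nor below in both. Hoxc10 read 4545 and 5669 in PBS and 4500 and 6414 in SC, and Hoxa10 read 2062 and 1545 in PBS and 1810 and 1732 in SC. Whether the sampled level matched between mice was not tested.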

How the data were processed

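RNA of the L1 cord was extracted with TRIzol, and 100 ng per sample was labelled by 2 amplification cycles for Affymetrix 3' arrays, per the labels' protocols. The deposited table holds probe set intensities on a linear scale that had been scaled per array, since the 2% trimmed mean of each array was equal. The sources used here do not name the method of summarising probes. Each array was brought to the same median, 255.8, and tests used log2(intensity + 25.58), so fold changes of dim genes are understated. Control probe sets (64) were left out, and 27022 of 45037 were kept, with a mean over the 6 arrays above the 40th percentile (155.2). Of the 45037, the platform annotation gave 1 symbol for 34945, several for 932 and none for 9160. A gene took its brightest probe set. limma 3.58.1 in R 4.3.3 fitted all 6 arrays and tested SC against PBS with 3 residual degrees of freedom and Benjamini-Hochberg adjustment at 0.05. The procedure was tested on simulated data that took their spread from the fit. It called 17 of 67 changes of 1 log2 unit, 63 of 67 of 2 units and 66 of 66 of 3 units. Of 26822 unchanged probe sets it called 15. Changes of 1 log2 unit were thus mostly missed. "Above" and "below" mean that an SC array lay beyond both PBS arrays.

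Named genes were the 15 with the widest gap between groups in each direction, the 10 in each direction that stood farthest from the PBS arrays on a single SC array while the other lay within 0.25 log2 units of their range, up to 4 genes per list with the widest gap, and a fixed set of markers; Mt1, Map3k6, Npy, Hlf, Clock, Npas2, Tef, Ctss, Cx3cr1, Tmem119 and Siglech were added after their values were seen. The members and gene lists were chosen with earlier results of these data known. Alternatives covered scaling, pseudocount, filter, arrays fitted, a replicate block, an intensity trend and leaving out each array. RefSeq promoters of build GRCm38.p6 were searched for motifs. The number of arrays limits the precision.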

Additional observations from a re-analysis of the deposited data

How the results depend on the processing

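No probe set passed an adjusted limma p of 0.05 under any alternative in which both SC arrays were kept, and with an intensity trend the smallest adjusted p was 0.0585. Leaving out 1 array gave 0 to 10 called probe sets. The 10 came without SC replicate 1, where the smallest adjusted p was 0.0136. The probe sets with both SC arrays above numbered 3840 of 27022, 7236 with no filter and 2292 with the filter at the 60th percentile. Leaving out 1 array gave 6309 to 11957 above and 8007 to 13651 below, against 5464 below with all, by construction, since fewer arrays need to be apart. The median log2 difference, with 1 array left out, ranged from -0.36 to -0.19 for myelin, -0.26 to -0.13 for oligodendrocyte precursors, -0.32 to -0.19 for cholesterol synthesis, -0.25 to 0.91 for the glucocorticoid list, -0.0066 to 0.41 for reactive astrocytes, -0.27 to -0.062 for microglia, -0.41 to -0.085 for interferon genes and 0.00089 to 1.63 for neutrophils. The interferon median was -0.16 at the 60th percentile, and the cause was not tested. Without SC replicate 1, 29 of 49 list medians moved by less than the spread between arrays, and likewise 29 of 49 without SC replicate 2. Quantile normalization left 45 of 49 and the intensities as deposited 49 of 49 in that range. The spread is itself built from the differences between the SC arrays and between the PBS arrays. Leaving out 1 SC array shifts a median by a similar amount, so the counts without an SC array say little about stability. The list medians given here are not taken relative to all genes. On that basis those of the glucocorticoid and reactive astrocyte lists had the opposite sign without SC replicate 2. Relative to all genes, the reactive astrocyte median was 0.10 on SC replicate 1 and 0.34 on SC replicate 2, with the same sign. The sign differed for the glucocorticoid (-0.15 and 0.83), microglia (0.046 and -0.35) and interferon lists (0.022 and -0.48).

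The replicate numbers did not pair the arrays: the deviations of PBS and SC arrays with the same number had a correlation of 0.037. With the replicate block, 0 probe sets were called (smallest adjusted p 0.587) and 2098 had an unadjusted p under 0.05, against 2129 without it.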
